A study of Mus musculus with 12 samples.

Results

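The 10 genes described here encode myeloid cell surface receptors, most of them inhibitory, of the Cd300, Lilr, Siglec, Pilr and Clec4 families: Cd300a, Cd300lb, Cd300ld, Cd300lf, Pirb, Siglece, Siglecf, Pilra, Cd33 and Clec4a2. They were chosen by symbol, with no measured value in the rule, and each matched 1 row of the 55335 genes listed. RNA-seq libraries were made from sorted neutrophils of 12 mice, 1 library per mouse as labelled, in 3 groups of 4. All mice were on the FVB background, aged 10 weeks and kept under SOPF housing. Tumor-associated neutrophils (TANs) came from mammary tumors of PyMT mice, which carry the polyoma middle T oncogene, and of PyMT-Cxcr2-/- mice, which carry it and lack the chemokine receptor Cxcr2 in the whole animal. The third group was bone marrow (BM) neutrophils of WT mice, which have neither the transgene nor the deletion. Tissue and tumor, and for PyMT-Cxcr2-/- TANs also the deletion, therefore cannot be told apart in comparisons with BM. The isolation of the cells differs along with them. Per the paper's methods, tumors were minced and digested with a dissociation kit, while marrow was spun out of the bones. No BM library of tumor-bearing mice was used here. Cells were enriched for CD11b and sorted as CD45+ CD11b+ Ly6G+ F4/80-. Counts assigned to genes summed to between 25032704 and 51351569 per library, so 3 counts, the smallest level taken as detectable, correspond to 0.0584 to 0.12 CPM (counts scaled by the library size), which covers counting error only.

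Inhibitory receptors of this kind carry tyrosine motifs (ITIMs) in their cytoplasmic tails. Once phosphorylated by Src family kinases such as Lyn and Fgr, these motifs recruit the phosphatases Shp1 (Ptpn6), Shp2 (Ptpn11) or Ship1 (Inpp5d) and dampen signals from activating receptors. Many are paired with an activating relative that has a short tail and signals through an adaptor such as DAP12 (Tyrobp) or the Fc receptor gamma chain (Fcer1g). Among the 10 genes, Cd300a, Cd300lf, Pirb, Siglece, Siglecf, Pilra and Clec4a2 encode receptors with ITIMs. Cd300lb and Cd300ld are short-tailed Cd300 receptors that pair with such adaptors and are usually counted as activating, so the name of the group does not hold for these genes. The signalling of mouse Cd33 is less clear than that of its human counterpart. Siglece, Siglecf and Cd33 bind sialic acids, Pilra binds sialylated glycoproteins, Pirb binds MHC class I, Cd300a and Cd300lf bind membrane lipids, and Clec4a2 is a C-type lectin also known as DCIR.

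Most of these genes lie in clusters. In mm10, Cd300a, Cd300lb, Cd300ld and Cd300lf occupy 244 kb of chromosome 11, from 114890041 to 115133992. Siglecf, Cd33 and Siglece occupy 308.8 kb of chromosome 7, from 43351341 to 43660161. Pirb lies on chromosome 7 from 3711409 to 3720391, Pilra on chromosome 5 from 137821952 to 137836281, and Clec4a2 on chromosome 6 from 123106428 to 123143999. The neighbors within both clusters differed in direction or size of change, as given below, and for this reason the 250 bases before the annotated start of 5 genes are shown, taken from the RefSeq promoter table for GRCm38.p6 and written 5′ to 3′ on the strand of the gene. Siglecf (chr7:43351091-43351340, plus strand) and Siglece (chr7:43660162-43660411, minus strand) are Siglec members with opposite changes, Cd300a (chr11:114889791-114890040, plus strand) and Cd300lb (chr11:114934372-114934621, minus strand) are the first neighbors of the Cd300 cluster, and Pirb (chr7:3720383-3720632, minus strand) is the member that, besides Siglecf, differed between both kinds of TAN. Capitals mark GAGGAA and GGAAGT on either strand, short motifs of the ETS type bound by factors such as PU.1.
Siglecf: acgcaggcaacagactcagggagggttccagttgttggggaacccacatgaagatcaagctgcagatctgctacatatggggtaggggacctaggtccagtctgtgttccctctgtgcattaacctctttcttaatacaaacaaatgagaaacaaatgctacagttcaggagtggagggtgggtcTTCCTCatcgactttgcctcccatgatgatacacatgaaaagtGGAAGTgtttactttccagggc
Siglece: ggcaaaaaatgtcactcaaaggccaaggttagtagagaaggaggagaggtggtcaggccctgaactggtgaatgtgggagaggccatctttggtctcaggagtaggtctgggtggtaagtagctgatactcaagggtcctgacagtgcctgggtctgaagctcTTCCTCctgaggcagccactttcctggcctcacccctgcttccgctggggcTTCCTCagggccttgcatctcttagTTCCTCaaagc
Cd300a: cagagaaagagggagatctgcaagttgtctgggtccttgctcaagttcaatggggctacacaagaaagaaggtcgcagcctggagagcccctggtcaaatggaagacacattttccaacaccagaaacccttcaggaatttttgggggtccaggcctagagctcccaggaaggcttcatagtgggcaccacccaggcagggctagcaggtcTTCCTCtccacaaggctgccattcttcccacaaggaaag
Cd300lb: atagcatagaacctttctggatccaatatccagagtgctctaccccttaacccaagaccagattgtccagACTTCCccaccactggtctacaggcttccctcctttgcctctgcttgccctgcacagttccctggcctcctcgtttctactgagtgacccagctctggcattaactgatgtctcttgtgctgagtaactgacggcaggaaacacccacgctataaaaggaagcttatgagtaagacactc
Pirb: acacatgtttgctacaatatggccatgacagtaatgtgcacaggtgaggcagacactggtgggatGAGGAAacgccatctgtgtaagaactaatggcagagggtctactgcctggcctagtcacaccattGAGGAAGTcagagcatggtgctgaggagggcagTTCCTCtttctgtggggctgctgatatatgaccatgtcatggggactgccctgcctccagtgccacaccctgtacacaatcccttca

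All 10 members matched an entry of the promoter table. GAGGAA, on either strand, was found in the 250 bases of 8 of the 10 members, and in 23.2% of the 32851 entries of the table. GGAAGT was found in 7 members and in 19.7% of entries, and the motifs can overlap, as they do at GAGGAAGT in the Pirb sequence. The AP-1 motif TGANTCA was found in 0 members and 6.75% of entries, and the NF-kB core motif in 3 members, Pirb, Siglece and Cd300ld, and in 17.6% of entries. The C/EBP motif TTGCNNAA was found in Cd300a and Pilra and in 9.56% of entries, and the STAT motif TTCNNNGAA in Clec4a2 and in 7.02%. The hypoxia core ACGTG was in none of the 10 windows and in 16.6% of entries. Siglecf held 1 GAGGAA match, 60 to 65 bases before the start, and Siglece held 3, the nearest 6 to 11 bases before it. These matches describe letters in a window. The RefSeq start of Cd33 and of Clec4a2 lies 11257 and 16262 bases from the outermost GENCODE M21 start, so the windows of these genes belong to one start among others.

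The labels were checked on Cxcr2 first. Its level was 2036 ± 195.1 CPM (SD, n = 4) in BM, 1198 ± 223.6 in PyMT TANs and 9.39 ± 0.577 in PyMT-Cxcr2-/- TANs. All 7 neutrophil markers were detected, but 6 of 7 were lower in each kind of TAN than in BM, and their summed level was 76990 to 104000 CPM in BM, 9615 to 15320 in PyMT TANs and 18400 to 30190 in PyMT-Cxcr2-/- TANs. The summed level of 8 macrophage markers was 202.8 to 287.3 CPM in BM, 1212 to 2477 in PyMT TANs and 1171 to 1915 in PyMT-Cxcr2-/- TANs. The summed level of 7 mammary epithelial markers was 0 to 0.229 CPM in BM, 36.8 to 395.6 in PyMT TANs and 65.8 to 257.7 in PyMT-Cxcr2-/- TANs. Of the 4 monocyte markers, 3 rose in both kinds of TAN: Cx3cr1 (1.59 CPM in BM, 207 in PyMT TANs and 209 in PyMT-Cxcr2-/- TANs), Ccr2 (4.48, 62.3 and 64.7 CPM) and F13a1 (7.66, 103.2 and 86.98 CPM). The fourth, Ly6c2, fell in both (742.6, 26.1 and 94.01 CPM). The T cell gene Cd3d fell as well (221.4, 12.45 and 27.9 CPM), and Cd3e and Ncr1, for T and NK cells, were below 1 CPM on average in each group. The part of these in the members' changes was not tested. In these bulk libraries, fewer cells of a type and less RNA per cell cannot be told apart.

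Compared per kb of exon, so that genes of unequal length can be set side by side, the most abundant member in BM was Cd33, at 294 ± 16.1 CPM per kb (SD, n = 4). It was followed by Siglece at 207.3 ± 26.9 and Cd300lb at 190.9 ± 23.1, which did not differ beyond their spread. Pilra (159.2 ± 13.6), Pirb (131.7 ± 4.54) and Cd300lf (122.7 ± 6.05) were intermediate, and Clec4a2 (98.7 ± 5.26) and Cd300ld (97.0 ± 9.29) lay within their spread of each other. Cd300a was at 60.5 ± 4.09 and Siglecf was last, at 6.07 ± 0.626 CPM per kb.

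This order was rearranged in tumors. In PyMT TANs, Cd33 (129.3 ± 19.0 CPM per kb), Cd300ld (121.8 ± 19.0) and Siglece (118.3 ± 33.4) lay within their spread of each other at the top. Siglecf moved from the last to the sixth place, at 48.6 ± 11.2 CPM per kb, between Pilra (59.5 ± 8.96) and Cd300a (43.3 ± 4.82). Siglecf was below Pilra in every PyMT library, but above Cd300a in some and below it in others. Clec4a2 was the lowest, at 14.04 ± 2.42. In PyMT-Cxcr2-/- TANs the same 3 genes led, with Cd33 at 155.4 ± 27.0, Siglece at 145.4 ± 18.5 and Cd300ld at 142.3 ± 22.7 CPM per kb. Clec4a2 (21.7 ± 4.96) and Siglecf (19.5 ± 2.90) were the lowest there, and did not differ beyond their spread. Summed over the 10 members, the level was 1368 CPM per kb in BM, 687.8 in PyMT TANs and 814 in PyMT-Cxcr2-/- TANs, and Siglecf made up 0.444%, 7.07% and 2.40% of this sum.

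**Figure D1:**
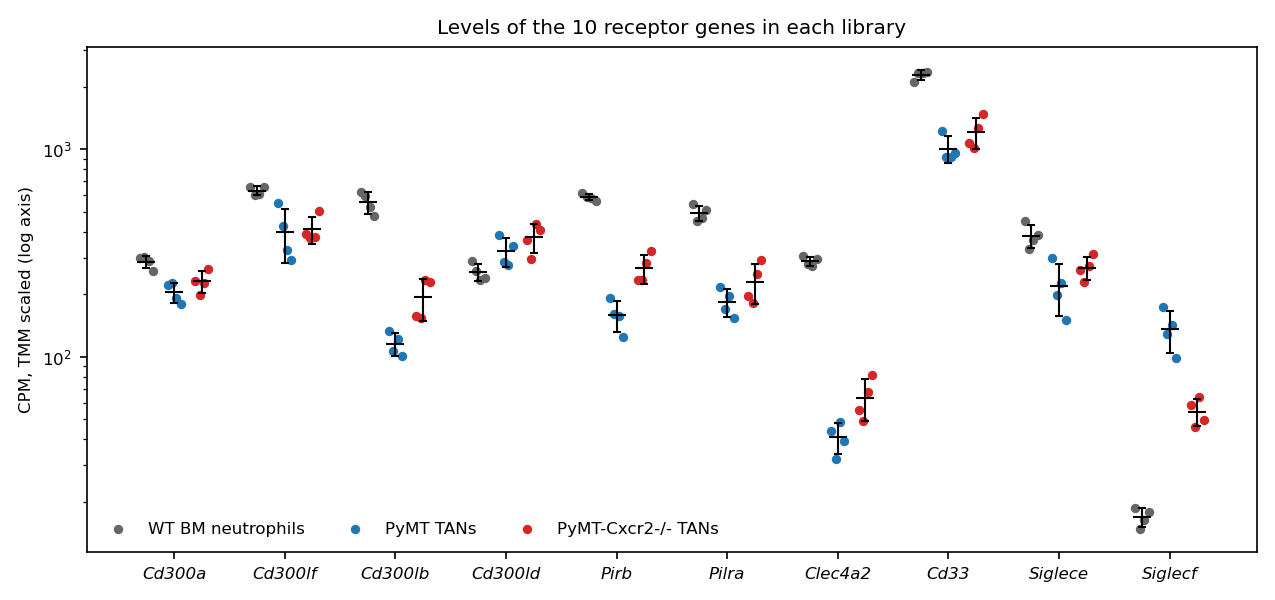
CPM with TMM scaling (log axis) of the 10 receptor genes. Each point is the library of 1 mouse, and bars give the mean and SD of the 4 mice of a group. Siglecf is the gene with higher levels in all 8 TAN libraries (46.1 to 173.5 CPM) than in the 4 BM libraries (14.7 to 18.7 CPM). Cd300lb, Pirb, Pilra, Clec4a2, Cd33, Siglece and Cd300lf are lower in all TAN libraries than in BM.

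PyMT TANs were compared with BM neutrophils to see how the receptors differ between neutrophils of the tumor and those of the healthy marrow. Of the 10 members, 7 were lower and 1, Siglecf, was higher. The falls ranged from 6.71-fold for Clec4a2 to 1.51-fold for Cd300lf, and Siglecf rose 8.37-fold. In this comparison 53.3% of the 17153 genes tested were past the thresholds, a change of 1.5-fold or more and an adjusted p (Benjamini-Hochberg) under 0.05 in edgeR's quasi-likelihood test, 30.1% higher and 23.2% lower. The 2 groups did not overlap for 9 of 10 members, against 58.3% of all genes. The median log2 fold change was -0.93 over the members and 0.09 over all genes tested. With scaling by the library total in place of TMM, the median of all genes was 0.53 and the share of calls that were higher went from 56.4% to 72.8%. The direction of small changes therefore depends on the scaling. So do the calls of some larger ones, among them Siglece (-0.75) and Cd300lf (-0.60), as given below.

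Siglecf, a sialic acid receptor best known from eosinophils and alveolar macrophages, had 18.7, 14.7, 16.4 and 17.9 CPM in the 4 BM libraries. PyMT TANs had 173.5, 128.3, 142.4 and 98.6 CPM, and PyMT-Cxcr2-/- TANs had 58.3, 46.1, 63.9 and 49.7 CPM. The 3 groups did not overlap, with the PyMT-Cxcr2-/- libraries between the other two. The log2 fold change was 3.07 ± 0.18 (SE, adjusted p = 1.82e-07 in edgeR) in PyMT TANs and 1.82 ± 0.13 (adjusted p = 5.17e-08) in PyMT-Cxcr2-/- TANs, each against BM. Relative to Siglece in the same library, a ratio that no scaling changes, Siglecf per kb was at 2.76% to 3.06% in BM, 38.5% to 43.3% in PyMT TANs and 10.6% to 15.5% in PyMT-Cxcr2-/- TANs. The summed level of 8 eosinophil markers was 38.8 to 52.1 CPM in BM, 7.65 to 9.30 in PyMT TANs and 5.51 to 10.1 in PyMT-Cxcr2-/- TANs, and in BM it was mostly Ear2, which fell (30.6, 1.19 and 1.45 CPM). The granule genes that define eosinophils were at or near 0 in TANs, and low in BM too, where Epx was at 0.211, Prg2 at 0.602 and Prg3 at 0.0917 CPM. Prg3 had no count in any TAN library, while Epx was at 0.0211 and 0.0159 CPM on average in PyMT and PyMT-Cxcr2-/- TANs, and Prg2 at 0.0316 and 0.0231 CPM. Ccr3, the eotaxin receptor, rose from 2.42 CPM in BM to 6.94 in PyMT TANs and 4.87 in PyMT-Cxcr2-/- TANs, and Il5ra was at 0.029, 0.287 and 0.306 CPM. The part of eosinophils in the rise of Siglecf was not tested. All 8 macrophage markers were higher in TANs than in BM in both comparisons, as Siglecf was, and their part in its rise was not tested.

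The Cd300 genes changed unequally. Cd300lb, an activating member that signals through DAP12, had 625.7, 596.9, 527.8 and 476.7 CPM in BM, while PyMT TANs had 133.7, 106.9, 122.4 and 100.4 CPM. PyMT-Cxcr2-/- TANs had 157.8, 153.1, 235.3 and 228.4 CPM. All TAN libraries were thus below all BM libraries, and all PyMT libraries below all PyMT-Cxcr2-/- libraries. The log2 fold change against BM was -2.20 ± 0.14 (adjusted p = 3.25e-07) in PyMT TANs and -1.39 ± 0.15 (adjusted p = 3.31e-06) in PyMT-Cxcr2-/- TANs.

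Cd300ld, the other activating member, went the other way. It had 289.6, 260.1, 235.0 and 241.0 CPM in BM, 385.1, 285.1, 278.1 and 340.2 CPM in PyMT TANs and 366.7, 296.5, 434.9 and 407.2 CPM in PyMT-Cxcr2-/- TANs. The PyMT libraries overlapped BM, and the PyMT-Cxcr2-/- libraries did not. It was past the thresholds in PyMT-Cxcr2-/- TANs against BM (log2 fold change 0.69 ± 0.13, adjusted p = 0.000255), but in PyMT TANs its change of 0.39 ± 0.13 (adjusted p = 0.0256) was under the 1.5-fold limit. With 12 libraries in 1 fit, the first value was 0.55 (adjusted p = 0.0044) and also under that limit. With scaling by the library total, the second was 0.84 (adjusted p = 8.82e-05) and past it. Within a library, the ratio of Cd300lb to Cd300ld per kb went from 1.79 to 2.08 in BM down to 0.268 to 0.399 in PyMT TANs and 0.390 to 0.509 in PyMT-Cxcr2-/- TANs, again independent of scaling.

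The inhibitory Cd300 receptors changed less than Cd300lb. Cd300lf, which has ITIMs and binds phospholipids, had 599.4 to 659 CPM in BM, 292.8 to 551 in PyMT TANs and 375.1 to 503.1 in PyMT-Cxcr2-/- TANs, so that both kinds of TAN were below BM. Its log2 fold change was -0.60 ± 0.18 (adjusted p = 0.0134) in PyMT TANs, at the edge of the fold limit, and -0.48 ± 0.12 (adjusted p = 0.00206) in PyMT-Cxcr2-/- TANs, under it. The first call was lost without PyMT TAN replicate 3 (-0.53) or replicate 4 (-0.48), with a filter of CPM of at least 1 in 4 libraries (-0.53, adjusted p = 0.0172), and with scaling by the library total (-0.16, adjusted p = 0.416). Cd300a, an ITIM receptor for phosphatidylserine, had 258.7 to 301.2 CPM in BM, 179.2 to 226.6 in PyMT TANs and 199.6 to 265.6 in PyMT-Cxcr2-/- TANs. Its log2 fold changes of -0.42 ± 0.12 (adjusted p = 0.00925) and -0.18 ± 0.11 (adjusted p = 0.149) were not past the thresholds, and with scaling by the library total they were 0.02 and 0.00, so no direction is given.

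The counts of relatives and signalling genes given from here on stand beside the shares of all genes past the thresholds, 53.3% in PyMT TANs (30.1% higher and 23.2% lower) and 59.5% in PyMT-Cxcr2-/- TANs (34.4% higher and 25.1% lower), each against BM, and 1.98% between both kinds of TAN, and nothing particular to a list is read from them. Of the 8 other genes of the Cd300 family, Cd300ld4 and Cd300ld5 gave no test, and 6 could be tested. Against BM, 1 rose and 1 fell in PyMT TANs, while 2 rose and 1 fell in PyMT-Cxcr2-/- TANs. Between both kinds of TAN edgeR called none, none had an unadjusted p under 0.05, and DESeq2 called none. Cd300e was higher in both, at 0.903 CPM in BM, 1.98 in PyMT TANs and 2.71 in PyMT-Cxcr2-/- TANs, and Cd300ld3 was lower, at 3.63, 1.89 and 1.97 CPM. In PyMT TANs both calls were at the edge of the threshold (adjusted p = 0.05 for Cd300e and 0.0499 for Cd300ld3 in edgeR). Cd300lg, which lies outside the cluster, was higher in PyMT-Cxcr2-/- TANs (1.76 CPM against 0.313 in BM). These levels were low beside those of the members. Cd300ld and Cd300lf share 1.38% and 0.644% of their 100-base words, so few reads could be assigned to the wrong one.

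**Figure D2:**
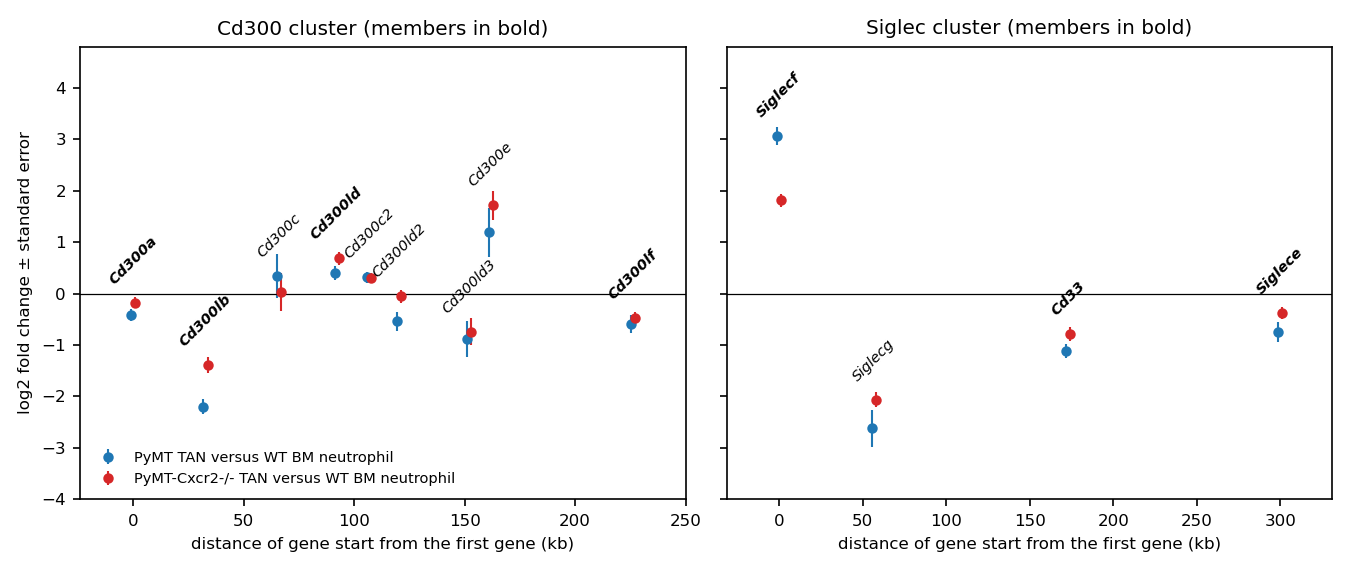
Log2 fold change against WT BM (vertical axis, bars are SE) of genes of the Cd300 and Siglec clusters, against the distance of each gene start from the first gene of the cluster in kb. Cd300lb (-2.20 in PyMT TANs) stands apart from the other Cd300 members (-0.60 to 0.39), and Siglecf (3.07) from its neighbors Siglecg, Cd33 and Siglece, which are below 0; with scaling by the library total, Cd300a is at 0.02.

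The other Siglec members, Cd33 and Siglece, were lower in TANs than in BM, though Siglece was past the thresholds in PyMT TANs only. Cd33 had 2098, 2338, 2337 and 2365 CPM in BM, 1224, 916.6, 915.8 and 964.2 CPM in PyMT TANs and 1076, 1009, 1271 and 1475 CPM in PyMT-Cxcr2-/- TANs. Every TAN library was below every BM library, and both kinds of TAN overlapped. For Cd33 the log2 fold change was -1.12 ± 0.13 (adjusted p = 2.46e-05) in PyMT TANs and -0.79 ± 0.13 (adjusted p = 0.000149) in PyMT-Cxcr2-/- TANs. Siglece, the main inhibitory Siglec of mouse neutrophils, had 331.6 to 449.4 CPM in BM, 151.0 to 298.9 in PyMT TANs and 229.2 to 311.8 in PyMT-Cxcr2-/- TANs. Siglece changed by -0.75 ± 0.19 on the log2 scale (adjusted p = 0.00527) in PyMT TANs, and by -0.38 ± 0.12 (adjusted p = 0.0135) in PyMT-Cxcr2-/- TANs, which was under the fold limit. With scaling by the library total the call in PyMT TANs was lost (-0.31, adjusted p = 0.12).

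Among the other Siglecs, 3 were higher and 2 lower in PyMT TANs than in BM among the 5 tested, and 3 rose and 1 fell in PyMT-Cxcr2-/- TANs. Siglec1, the sialoadhesin of macrophages, went from 0.947 CPM in BM to 38.9 in PyMT TANs and 45.9 in PyMT-Cxcr2-/- TANs. Cd22, best known from B cells, went from 1.36 to 9.29 and 7.55 CPM. Siglecg, which lies between Siglecf and Cd33, fell in both, from 44.2 CPM in BM to 6.86 and 9.65 CPM, and Mag was lower in PyMT TANs (2.78 against 0.670 CPM). The B cell markers were low, with a summed level of 12.6 to 23.2 CPM in BM, 1.92 to 20.3 in PyMT TANs and 5.79 to 15.2 in PyMT-Cxcr2-/- TANs. The rise of Siglec1 went with that of the macrophage markers given above, whose part was not tested.

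Pirb, the mouse LILRB receptor for MHC class I, had 614.8, 591.2, 584.5 and 565.6 CPM in BM. PyMT TANs had 191.2, 161.3, 157.1 and 124.6 CPM, and PyMT-Cxcr2-/- TANs had 234.2, 233.7, 282.2 and 322.6 CPM. The 3 groups did not overlap, and the PyMT-Cxcr2-/- libraries lay between the other two. On the log2 scale Pirb changed by -1.83 ± 0.14 (adjusted p = 9.6e-07) in PyMT TANs and by -1.001 ± 0.118 (adjusted p = 5.4e-06) in PyMT-Cxcr2-/- TANs. Of the 100-base words of Pirb, 20.7% also occur in other genes, most often in Pira2 and 3 gene models of the same family. A part of its reads therefore cannot be placed with certainty. Genes that share fewer words were not recorded, so sharing with Lilra6 is not known. Of 7 activating relatives, Pira2, Lilra5 and Lilra6 matched a row by symbol, and rows of the others under another name were not looked for. Lilra6, an activating PIR-A receptor, fell from 447 CPM in BM to 70.1 in PyMT TANs and 123.4 in PyMT-Cxcr2-/- TANs (log2 fold changes -2.61 and -1.72), and Pira2 fell from 6.54 to 1.54 and 2.97 CPM. Lilra5 rose from 0.158 to 5.08 and 4.83 CPM.

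Pilra and its activating partners also fell together. Pilra had 449.3 to 542 CPM in BM, 153.4 to 215.8 in PyMT TANs and 182.0 to 292 in PyMT-Cxcr2-/- TANs, with log2 fold changes of -1.36 ± 0.13 (adjusted p = 7.41e-06) and -0.96 ± 0.14 (adjusted p = 4.14e-05). Both kinds of TAN were below BM and overlapped each other. Pilrb2 fell from 169 CPM in BM to 33.9 and 39.8 CPM, and Pilrb1 from 110.2 to 31.0 and 30.0 CPM, in PyMT and PyMT-Cxcr2-/- TANs. The exons of Pilra share 468 bases (15.1% of their length) with Zcwpw1 on the opposite strand, and its count is uncertain to that extent, since the strand setting of the counting is not given in the sources used here.

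Clec4a2, the ITIM-bearing lectin DCIR, fell the most. It had 306.6, 279, 273.3 and 296.3 CPM in BM, 44.1, 32.1, 48.8 and 39.4 CPM in PyMT TANs and 55.6, 48.9, 68.0 and 81.8 CPM in PyMT-Cxcr2-/- TANs. The groups did not overlap, although the lowest PyMT-Cxcr2-/- library (48.9) lay just above the highest PyMT library (48.8). The fitted log2 change was -2.75 ± 0.15 (adjusted p = 1.07e-07) in PyMT TANs and -2.05 ± 0.14 (adjusted p = 4.68e-08) in PyMT-Cxcr2-/- TANs. Relatives of the Clec4 family went in both directions. Clec4n (Dectin-2), which signals through the Fc receptor gamma chain, went from 13.3 CPM in BM to 225.4 in PyMT TANs and 113.5 in PyMT-Cxcr2-/- TANs, and Clec4a3 from 3.45 to 20.1 and 15 CPM. Clec4e (Mincle) and Clec4d, added after their values were seen because of their high levels, went from 343.8 to 1496 and 1378 CPM and from 321.4 to 513 and 565.4 CPM. Clec4b2, at 1.98 CPM in BM, 0.518 in PyMT TANs and 0.582 in PyMT-Cxcr2-/- TANs, fell in the latter (-1.62, adjusted p = 0.00138) and had -1.85 in PyMT TANs (adjusted p = 0.146). Of the 10 listed Pilr and Clec4 relatives, 6 rose and 2 fell in PyMT TANs, and 7 rose and 3 fell in PyMT-Cxcr2-/- TANs.

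**Figure D3:**
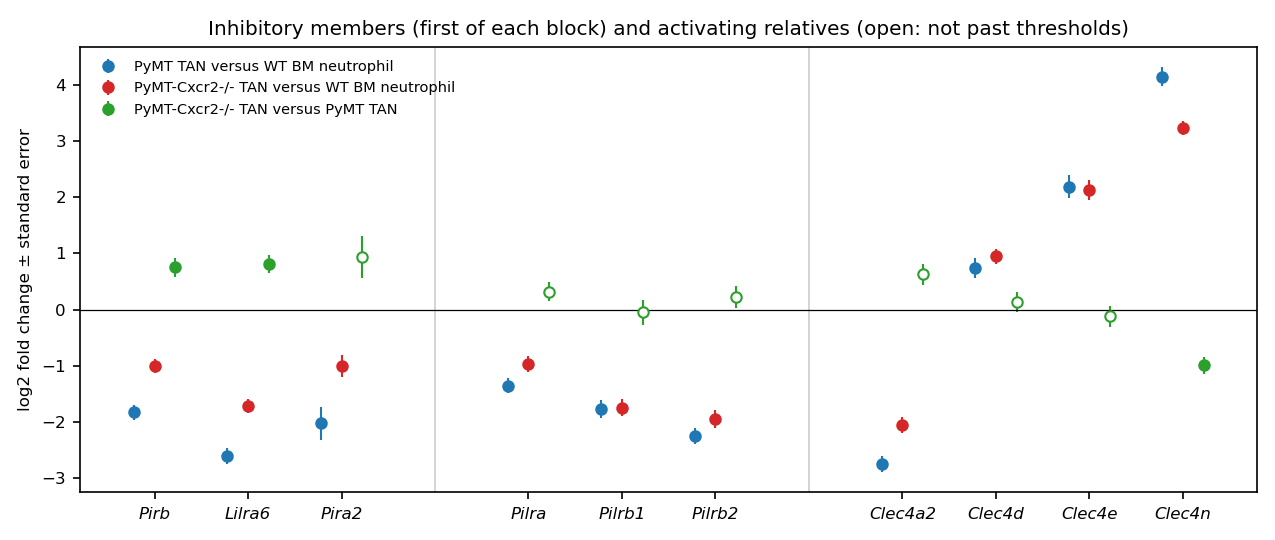
Log2 fold change (vertical axis, bars are SE) of the inhibitory members Pirb, Pilra and Clec4a2, each first in its block, and of activating relatives, in the 3 comparisons. Open points are not past the thresholds. Lilra6, Pira2, Pilrb1 and Pilrb2 are below 0 against BM, whereas Clec4d, Clec4e and Clec4n are above 0 (4.15 for Clec4n in PyMT TANs) and Clec4a2 is at -2.75. Lilra5, which rose, is not drawn.

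PyMT-Cxcr2-/- TANs were compared with the same BM libraries, and since the controls are shared, the results of both comparisons are not independent. Of the 10 members, 5 were lower (Cd300lb, Pirb, Pilra, Cd33 and Clec4a2) and 2 higher (Cd300ld and Siglecf). In all, 59.5% of 17732 genes were past the thresholds, 34.4% higher and 25.1% lower, and 65.9% of genes did not overlap, as did 9 of 10 members. The median log2 fold change was -0.63 over the members and 0.09 over all genes, which moved to 0.27 with scaling by the library total, where the share of calls that were higher went from 57.9% to 65.2%. The members called against BM in both kinds of TAN were Cd300lb, Pirb, Pilra, Cd33, Clec4a2 and Siglecf, and all of them had the same sign.

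**Figure D4:**
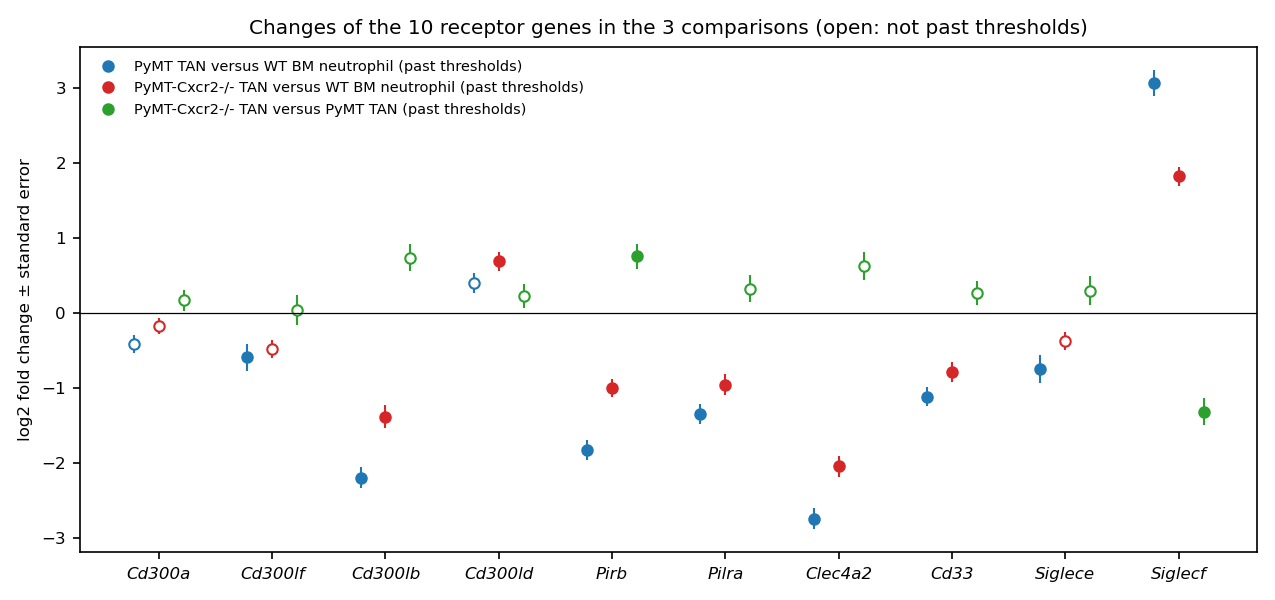
Log2 fold change (vertical axis, bars are SE) of the 10 receptor genes in the 3 comparisons. Filled points are past the thresholds and open points are not. Siglecf upward and Clec4a2, Cd300lb and Pirb downward have the largest changes against BM. Every member but Cd300ld has a value of the opposite sign in PyMT-Cxcr2-/- against PyMT TANs to that against BM. The comparisons share libraries, so their signs are not independent. With scaling by the library total, Cd300a (0.02 and -0.03) and Cd300lf (-0.15 in PyMT-Cxcr2-/- against PyMT TANs) change sign.

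The comparison of PyMT-Cxcr2-/- with PyMT TANs asked which receptors differ between TANs of mice without and with Cxcr2. Per the paper, tumors of PyMT-Cxcr2-/- mice were larger and held more neutrophils and fewer macrophages. Loss of Cxcr2 in the neutrophils and these differences between the tumors cannot be told apart here. Siglecf was 2.50-fold lower and Pirb 1.69-fold higher, 2 of 10 members, while 1.98% of the 18463 genes tested were past the thresholds, 1.38% higher and 0.596% lower. Siglecf had a log2 fold change of -1.32 ± 0.18 (adjusted p = 0.0102, 95% confidence interval -1.72 to -0.92), and all 4 PyMT-Cxcr2-/- libraries were below all 4 PyMT libraries. Pirb had 0.75 ± 0.17 (adjusted p = 0.0425, interval 0.39 to 1.12), with all 4 libraries above. The median log2 fold change was 0.28 over the members and -0.07 over all genes, which moved to -0.26 with scaling by the library total, where the share of calls that were higher went from 69.9% to 34.5%. The call of Siglecf was lost without PyMT TAN replicate 2 (-1.34, adjusted p = 0.0502). The call of Pirb was kept in 1 of the 8 fits that left out 1 library, that without PyMT TAN replicate 1, and was lost in the other 7 (adjusted p up to 0.165), once GC content and gene length were adjusted for (adjusted p = 0.0817) and with scaling by the library total (0.56, under the fold limit).

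Cd300lb and Clec4a2 also did not overlap between both kinds of TAN, which makes 4 of 10 members, against 12% of all genes. Their log2 fold changes of 0.74 ± 0.18 (adjusted p = 0.0598, interval 0.35 to 1.12) and 0.63 ± 0.19 (adjusted p = 0.12, interval 0.21 to 1.04) were not past the threshold. DESeq2 called both (adjusted p = 0.00549 and 0.0319), and so did the fit of 12 libraries (0.0154 and 0.033). Without filtering low counts, Cd300lb was called (adjusted p = 0.00934). The remaining members did not pass in any fit. Their log2 fold changes and intervals were 0.32 (-0.06 to 0.71) for Pilra, 0.29 (-0.13 to 0.72) for Siglece, 0.26 (-0.09 to 0.62) for Cd33, 0.22 (-0.13 to 0.57) for Cd300ld, 0.17 (-0.14 to 0.47) for Cd300a and 0.04 (-0.40 to 0.47) for Cd300lf, and with scaling by the library total the values of Cd300a and Cd300lf were -0.03 and -0.15. These intervals do not show that the levels are alike.

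**Figure D5:**
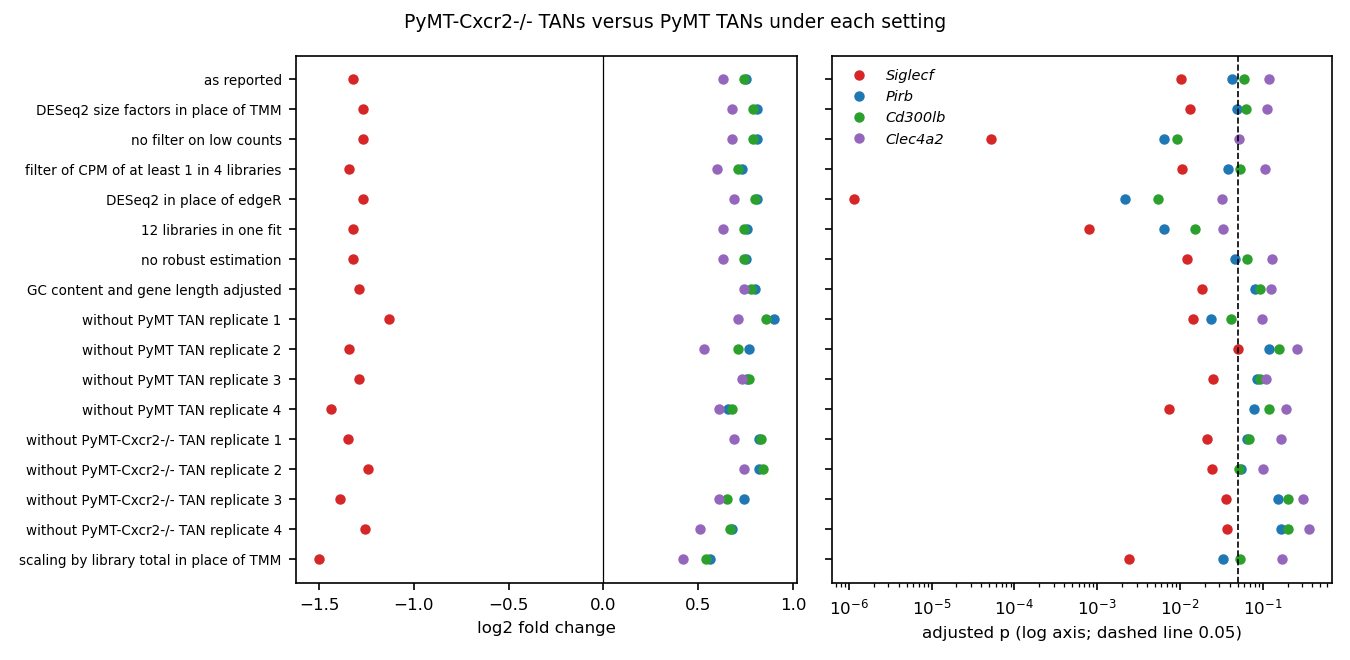
PyMT-Cxcr2-/- against PyMT TANs for the 4 members whose groups did not overlap, with the log2 fold change (left) and the adjusted p on a log axis (right, dashed line at 0.05) for each setting on the vertical axis. Among the settings drawn, Siglecf is on the right of the dashed line only without PyMT TAN replicate 2 (adjusted p = 0.0502), while the adjusted p of Pirb, Cd300lb and Clec4a2 lie on both sides of it.

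Of the relatives, Clec4n fell from PyMT to PyMT-Cxcr2-/- TANs as Siglecf did (log2 fold change -0.99 ± 0.16, adjusted p = 0.0126), and Lilra6 rose as Pirb did (0.81 ± 0.16, adjusted p = 0.0284). Ceacam1 and Clec12a, inhibitory receptors outside these families, were much lower in TANs than in BM and higher in PyMT-Cxcr2-/- than in PyMT TANs. Ceacam1 was at 583.4 CPM in BM, 46.3 in PyMT TANs and 103.4 in PyMT-Cxcr2-/- TANs (direct log2 fold change 1.16 ± 0.19, adjusted p = 0.0143), and Clec12a at 282.2, 30.8 and 56.0 CPM (0.86 ± 0.19, adjusted p = 0.0484). Neutrophil markers moved in the same way, with 5 of 7 higher in PyMT-Cxcr2-/- TANs, among them Ly6g with 548.9 CPM in BM, 35.7 in PyMT TANs and 125.3 in PyMT-Cxcr2-/- TANs. Of the monocyte markers Ly6c2 was higher (1.84, adjusted p = 0.0113), and so was Cd3d (1.16, adjusted p = 0.0404). The part of these in the values of Siglecf, Pirb, Cd300lb and Clec4a2 was not tested. None of the 8 macrophage markers and none of the 3 tested eosinophil markers was past the thresholds in edgeR or DESeq2 in this comparison, and none had an unadjusted p under 0.05.

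A further list held 11 myeloid receptors taken as inhibitory, and its counts stand beside the same background shares. Against BM, 3 rose and 4 fell in each kind of TAN, while 2 had higher levels in PyMT-Cxcr2-/- than in PyMT TANs. The rises were led by Cd72 (0.767 CPM in BM, 12.2 and 12.7 in TANs) and Lair1, a collagen receptor (17.5, 70.1 and 72.0 CPM). The list includes Lilr4b, which lacks ITIMs, so the name inhibitory does not hold for this gene. Lilr4b counted as a rise in PyMT-Cxcr2-/- TANs against BM only (log2 fold change 0.82). Its ITIM-bearing relative Lilrb4a was past the thresholds in no comparison (1250 CPM in BM, 1333 in PyMT TANs and 1506 in PyMT-Cxcr2-/- TANs). Of 10 phosphatases, kinases and adaptors downstream of ITIMs, 5 were lower in PyMT TANs than in BM by edgeR and by DESeq2, and 2 were lower and 1 higher in PyMT-Cxcr2-/- TANs. Ptpn6, which encodes Shp1, went from 629 CPM in BM to 299.3 and 302.3 CPM, and Dok3 from 556.6 to 136.7 and 193.8.

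Of 7 adaptors and kinases of the activating arm, 4 were lower in PyMT TANs, and 4 were lower and 1 higher in PyMT-Cxcr2-/- TANs, each against BM, where 23.2% and 25.1% of all genes were lower and 30.1% and 34.4% higher. Tyrobp, which encodes DAP12, the adaptor of Cd300lb and Pilrb, went from 1147 CPM in BM to 479.5 and 549.8 CPM. Hcst, encoding DAP10, went from 65.8 to 18.5 and 21.6 CPM, and Syk, the kinase that reads phosphorylated ITAMs, was higher in PyMT-Cxcr2-/- TANs (1833 against 1227 CPM). Plcg2 was lower in both kinds of TAN (532.9, 161.3 and 289.2 CPM) and differed between them (0.84 ± 0.18, adjusted p = 0.037). Of 13 genes that make, transfer or remove sialic acid, the ligand of Siglecs, 5 were higher and 2 lower in PyMT TANs and 4 higher and 1 lower in PyMT-Cxcr2-/- TANs, and edgeR called none between both kinds of TAN, where 3 had an unadjusted p under 0.05 and DESeq2 called 1. St6gal1 went from 2.62 CPM in BM to 15.98 and 19.2, St3gal1 from 69.2 to 173.3 and 144.9, and St3gal2 from 95.03 to 10.5 and 17.0.

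The members varied more among mice with tumors. Their coefficient of variation was 3.45% to 12.97% in BM, 11.1% to 28.9% in PyMT TANs and 11.7% to 22.9% in PyMT-Cxcr2-/- TANs. Single libraries held most of the extremes. PyMT TAN replicate 1 had the highest level of its group for 8 of 10 members and replicate 4 the lowest for 7. Among PyMT-Cxcr2-/- TANs, replicate 4 was highest for 7 members and replicate 2 lowest for all 10. PyMT TAN replicate 1 and PyMT-Cxcr2-/- TAN replicate 4 were also the libraries of their groups with the highest summed neutrophil markers (15320 and 30190 CPM) and the lowest summed macrophage markers (1212 and 1171 CPM), and the part of these in the members' levels was not tested.

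Over the 12 libraries, the genes with the most similar profile were found among 11089 genes by the root-mean-square difference of centred log2 CPM. Pirb was closest to Stk38 (0.058) and Pbx2 (0.079), and Cd300lb to Hipk1 (0.0687) and Osbpl2 (0.123). For Siglecf the nearest were Arf2 (0.274) and Ankrd37 (0.312). For Cd300a, Cd300ld, Cd300lf, Siglece, Pilra and Cd33 the nearest gene lay between 0.0762 (Pik3r4 for Cd300a) and 0.101 (Gm39556 for Pilra). These distances are descriptions over libraries of 3 groups, in which any genes that differ alike between groups come close.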

How the data were processed

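RNA was taken from neutrophils purified by flow cytometry, and per the paper's methods the authors removed ribosomal RNA, built strand-specific libraries and read them from both ends. After trimming, reads were mapped with STAR (mm10). The deposited values are these raw HTSeq counts per gene. FastQC and HTSeq are named in the submitters' processing notes, without versions, and the strand setting and annotation release are not given in the sources used here. The 5 classes of reads that HTSeq gave no gene (46.3% to 60.5% of a library) were left out of library sizes and tests.

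Identifiers were matched to GENCODE M21 (55154 of 55335). Each comparison was fitted on its 2 groups with edgeR 4.0.16 in R 4.3.3 (TMM, filterByExpr, robust quasi-likelihood test), with p-values adjusted over all genes by Benjamini-Hochberg, and the standard error is the size of the log2 fold change over the square root of F. Levels are CPM with TMM factors over 12 libraries. The alternatives included DESeq2 1.42.0, other normalization and filters, GC content and gene length, and each library left out. The procedures were tested on simulated data. No label ties replicates to anything but separate samples, so p-values measure the spread between these libraries. Every pair of replicates differed by more than sampling noise (chi-square per degree of freedom 22.6 to 134.4). The members, lists and tests were chosen with earlier results of these data known. Named genes are the members, up to 2 rises and 2 falls per list and comparison among genes past the thresholds, marker genes and the 2 nearest profiles of each member, and some of these are not reported here.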

Additional observations from a re-analysis of the deposited data

Results flagged for a closer look

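Siglecf (-1.32 on the log2 scale) and Pirb (0.75) are listed because their change against WT BM differed between PyMT-Cxcr2-/- and PyMT TANs in the test of that difference itself, the direct comparison in edgeR (adjusted p = 0.0102 and 0.0425), which is the comparison already described. Of the 30 sets of 4 libraries (10 members in 3 groups), 3 had a library whose gap to the others was past Dixon's 95% critical value for 4 samples, where chance gives about 1 in 20. Cd300lf was at 503.1 CPM in PyMT-Cxcr2-/- TAN replicate 4, above the other 3 libraries (375.1 to 389.9 CPM). Cd33 was at 2098 CPM in WT BM replicate 1, below the others, and at 1224 CPM in PyMT TAN replicate 1, above them.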

How the results depend on the processing

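Against BM, the number of members past the thresholds was 7 or 8 without any 1 library, in both kinds of TAN, and it was 4 in PyMT-Cxcr2-/- TANs where a change of 1 on the log2 scale was required. In the comparison of PyMT-Cxcr2-/- with PyMT TANs, 2 members passed, 4 with DESeq2 or with 12 libraries in one fit, 1 with that limit, with GC content and gene length adjusted or with scaling by the library total, and 0 to 3 when 1 library was left out (0 without PyMT TAN replicate 2). No log2 fold change of a called member changed sign in any setting. The count over all genes in that comparison was 365, and 594 without a filter, 1034 with DESeq2, 886 with 12 libraries in one fit, 215 with the limit of 1, 214 with GC content and gene length adjusted, 597 with scaling by the library total and 23 (without PyMT TAN replicate 2) to 513 with 1 library left out. The scaling by library total was chosen after seeing the data. The cause of these differences was not tested.

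The replicate number as a block gave 0 members and 13 genes between both kinds of TAN, with Siglecf at -1.30 (adjusted p = 0.0758) and Pirb at 0.76 (adjusted p = 0.243), and with GC content and gene length also adjusted 0 members and 8 genes. It changed no other call of a member. Same-numbered libraries are different mice, and the correlations of their deviations were -0.205 to -0.07 there. Other pairs had -0.334 to 0.31 (mean 0.0427), a range that holds all of these. So few values cannot show whether the numbers mark anything shared. With 4 mice per group, members with changes as small as those of Pilra or Siglece between both kinds of TAN cannot be separated from no change, whereas depth was no limit, since the lowest count of a member in any library was 476.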
